A study of Saccharomyces cerevisiae with 9 samples.

Results

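The comparison sets budding yeast that had been frozen for 24 h and thawed against yeast prepared alike but never frozen, across all measured genes. It uses 6 of the 9 arrays of the series, 3 frozen for 24 h and 3 unfrozen, chosen by their labels alone. A probe set was used where it was annotated with a single S. cerevisiae gene, and 5396 of 5449 such genes passed a filter on dim signals and were tested.

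All samples were the laboratory strain BY4741 of Saccharomyces cerevisiae, a haploid of mating type a, grown in rich YPD medium at 30 °C to an OD600 of 1. The cells were then washed and resuspended in distilled water, so both groups had left their medium. The frozen group was held at -30 °C for 24 h and thawed for 10 min in a bath at 30 °C, while the unfrozen group was an aliquot taken before freezing. Freezing and thawing came together, so their effects cannot be told apart. A further 3 arrays of cells frozen for 48 h, with the same thaw, entered the fit only to estimate the spread and are set beside the 24 h values where stated. The labels describe the arrays both as independent triplicates and as coming from 2 independent experiments, and p-values here reflect array-to-array spread that may in part be technical.

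Freezing injures cells through ice, loss of water and the return of oxygen and water on thawing. Budding yeast meets sudden stress mainly through a pair of related activators, Msn2 and Msn4, which switch on genes for small heat shock proteins, catalase and storage carbohydrates, and through heat shock factor Hsf1, which drives chaperone genes. A separate set of genes, for using acetate, lactate, ethanol and fatty acids, is kept off while glucose is present and is switched on by regulators such as Cat8 and Adr1 when glucose is gone. Dividing cells also express genes in waves, and the mitotic wave depends on the cells passing through G2 and M phase.

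Signals are given as scaled log2 values, in which all arrays share 1 median over the S. cerevisiae probe sets. Before scaling, the median intensity by replicate was 303, 237 and 679 for frozen 24 h arrays, against 392, 201 and 335 in unfrozen replicates 1, 2 and 3. Between 97.4% and 98.7% of S. cerevisiae probe sets per array lay above the background set by fission yeast probe sets, to which no sample RNA should bind. Arrays of a group correlated at 0.957 to 0.988 over genes. The median over the 17 ribosomal RNA controls, on the same scale, was 7.94, 9.68 and 10.43 in the frozen 24 h arrays, against 5.45, 6.78 and 7.02 in the unfrozen arrays. The groups did not overlap, with a difference of 2.94 and a two-sided exact permutation p of 0.1, the smallest that 3 arrays against 3 can give. For the 7 control genes with probe sets at both ends, the 3' minus 5' signal was higher in frozen cells for 4, never without overlap, and differed by at most 0.21 (smallest exact permutation p = 0.2). The strain's markers went in part with its genotype. The a-cell genes had mean signals from 6.84 for ASG7 to 12.20 for MFA1, and the deleted loci URA3 and MET17 averaged 0.68 and 2.04. URA3 was below the background of its array in all arrays compared. MET17 was just above it in frozen 24 h replicate 3 (2.62 against 2.56) and in unfrozen replicate 2 (3.48 against 3.38). The deleted locus LEU2 had 3.94, 4.19 and 3.69 in frozen 24 h replicates 1, 2 and 3, against 3.59, 2.88 and 1.09 in unfrozen replicates 1, 2 and 3. It was thus above the background of its array in all 3 frozen arrays and in unfrozen replicate 1, and the groups did not overlap. Of the alpha-cell genes, only MF(ALPHA)1 was near background, at 2.42. MF(ALPHA)2 at 4.42, STE3 at 5.83 and SAG1 at 7.71 were above it, which does not go with mating type a.

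Frozen cells gave higher signals for named genes of stress protection, protein folding and the uptake and use of carbon sources other than glucose, and lower signals for a small group of mitotic and cell surface genes. In all, 54 of 5396 genes, 1.00%, differed at a limma adjusted p under 0.05. Of these, 43 (0.797% of genes) rose and 11 (0.204%) fell, and 50 of the 54 changed at least 2-fold. Each count of called members of a list below stands against these shares. Differences of 2-fold or more were seen in 146 genes upward and 60 downward, so most large differences did not pass the test. The median difference over all genes was -0.02 on the log2 scale, with 5th and 95th percentiles of -0.55 and 0.69. The 3 frozen arrays lay entirely above the 3 unfrozen ones for 659 genes (12.2%) and entirely below for 628 (11.6%). A typical gene varied more among frozen than among unfrozen arrays, with a median SD of 0.235 against 0.164. Each array measures RNA pooled over a culture, so fewer cells carrying an RNA and less of it per cell cannot be told apart.

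The number of genes called moved with single arrays. It was 40, 22 and 10 without frozen 24 h replicates 1, 2 and 3, with 36, 21 and 10 of the 54 kept. Without unfrozen replicates 1, 2 and 3 it was 4, 5 and 97, with 3, 5 and 48 kept. It was 121, 34 and 93 without frozen 48 h replicates 1, 2 and 3, which bear only on the estimate of the spread. With the ribosomal RNA signal as a covariate limma called 0 genes, with 139 at unadjusted p under 0.05 against 579 without it. That signal did not overlap between the groups, so the covariate takes up part of the group difference and cannot be told apart from freezing. With arrays aligned on all probe sets instead, where the median gene stood at -0.34, 19 genes were called higher and 45 lower. That alignment and the values as deposited move every gene by 1 amount, so that list medians near 0 can turn there while their distance from the median gene stays the same. Over the 25 alternatives a call was kept in 9 (YKL107W) to 23 (HSP12 and AGP2), with a median of 15. The pseudocount, the changes of filter, the mean of probe sets, the replicate block and replicate 3 as a batch each kept all 54. So did leaving out frozen 48 h replicate 1 or 3. The ribosomal RNA covariate and leaving out replicate 2 of both groups kept 0. Those outcomes are the same for every gene, so only the other alternatives tell the genes apart. All 54 genes had non-overlapping arrays, beside 23.9% of all genes, and kept their sign under every alternative run. Genes chosen by a small p on these same arrays would mostly do both, so neither is further support for the calls.

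**Figure D1:**
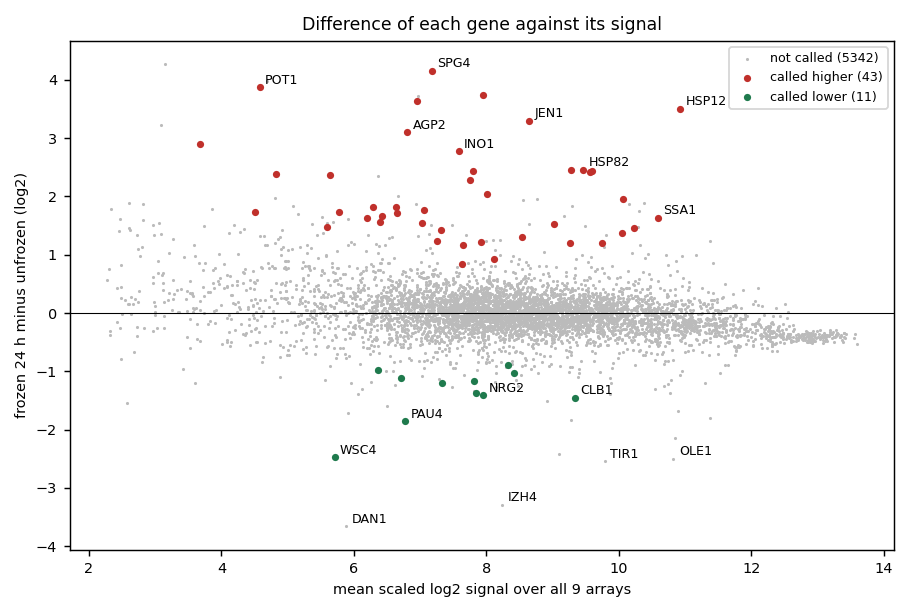
Each point is a gene, placed by its mean scaled log2 signal over all 9 arrays (x axis) and its frozen 24 h minus unfrozen difference on the log2 scale (y axis). The 43 genes called higher (red) reach 4.16 for SPG4, the 11 called lower (green) reach -2.48 for WSC4, and uncalled genes such as DAN1 and OLE1 lie further down.

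The called gene with the smallest limma p was HSP12, a small membrane-stabilising protein under Msn2 and Msn4. Its scaled log2 signal was 11.87, 12.25 and 12.07 in frozen 24 h replicates 1, 2 and 3, against 8.96, 8.96 and 7.73 in unfrozen replicates 1, 2 and 3. All frozen arrays were high and close together, and the lowest unfrozen array was replicate 3. The mean was 12.06 ± 0.19 in frozen and 8.55 ± 0.71 in unfrozen cells (SD, n = 3 each), an 11.4-fold rise, and the call held in 23 of 25 alternatives.

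Among 55 tested targets of Msn2 and Msn4, 7 rose and 0 fell, where 0.797% and 0.204% of all genes did. The median difference of these targets was 0.64, against -0.02 over all genes, and it was 0.68, 0.74 and 0.70 in frozen 24 h replicates 1, 2 and 3. Frozen arrays lay above unfrozen ones for 32 of the 55 genes and below for 1, beside 12.2% and 11.6% of all genes. GPH1, the glycogen phosphorylase that releases glucose from glycogen, had 9.38, 10.75 and 10.68 in frozen cells, against 8.46, 8.18 and 6.85 in unfrozen cells. Its groups did not overlap, but frozen replicate 1 came within 1 log2 unit of unfrozen replicate 1 (2.44 ± 0.46, limma adjusted p = 0.0375), and the call held in 12 of 25 alternatives. NQM1, a transaldolase-like enzyme, rose by 2.05 ± 0.27 and CTT1, the cytosolic catalase that breaks down hydrogen peroxide, by 1.42 ± 0.20. GLC3, the glycogen branching enzyme, rose by 1.21 ± 0.19, HSP42 by 1.21 ± 0.18 and DCS2, a regulator of messenger RNA cap scavenging, by 0.93 ± 0.17.

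GPH1 and GLC3 were the 2 of 24 trehalose and glycogen genes called, both higher, where 0.797% of all genes were. The list's median was 0.32, and it was 0.20 without frozen 24 h replicate 2 and 0.18 with the ribosomal RNA covariate. The glycogen synthases GSY1 and GSY2 stood at -0.02 ± 0.28 and -0.03 ± 0.28, with overlapping arrays. The oxidative stress list had CTT1 as its 1 call among 40 genes, with OYE3, an NADPH dehydrogenase, at 1.37 ± 0.40 (limma adjusted p = 0.183). Its median of 0.19 was 0.12 without frozen 24 h replicate 1, 0.32 without frozen 24 h replicate 3 and 0.35 with the ribosomal RNA covariate.

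Proteins tied to drying out and to stationary phase gave the largest rise that passed the test. SPG4, a gene needed to survive heat in stationary phase, had 7.76, 8.52 and 9.73 in frozen 24 h replicates 1, 2 and 3, against 4.48, 4.27 and 4.79 in unfrozen replicates 1, 2 and 3. The frozen arrays spread over about 2 log2 units and all stood well above the tightly grouped unfrozen arrays, a 17.9-fold difference (4.16 ± 0.72, limma adjusted p = 0.0251). FMP16 had 7.48, 7.46 and 7.77 in frozen cells, against 6.31, 6.19 and 6.52 in unfrozen cells, a small and even rise of 1.23 ± 0.18. With HSP12, 3 of 17 tested genes of this list rose and 0 fell, where 0.797% and 0.204% of all genes did. All 17 differences were positive, and the median was 0.77.

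YNL194C encodes a membrane protein of the Sur7 family, which sits in furrows of the plasma membrane called eisosomes. It had 8.15, 9.68 and 9.35 in frozen cells, against 5.65, 5.75 and 4.55 in unfrozen cells. Every frozen array was above every unfrozen one by more than 2 log2 units (3.74 ± 0.45, limma adjusted p = 0.0102). The other 15 eisosome genes were not called, and the list's median was -0.25, or -0.12 under quantile normalization, with SUR7 lowest at -1.06.

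Chaperone genes under Hsf1 rose in 5 of 33 cases and fell in 0, where 0.797% and 0.204% of all genes did, with a median of 0.40. Frozen arrays lay above unfrozen ones for 17 of these genes and below for 0, beside 12.2% and 11.6% of all genes. HSP82, the stress-inducible Hsp90, had 10.31, 9.65 and 10.73 in frozen 24 h replicates 1, 2 and 3, against 7.16, 7.42 and 8.73 in unfrozen replicates 1, 2 and 3. Unfrozen replicate 3 was the highest of its group and came within 1 log2 unit of frozen replicate 2 (2.46 ± 0.43, limma adjusted p = 0.0264). SSA4, an inducible Hsp70, had 10.39, 9.73 and 10.77 in frozen cells, against 7.90, 8.09 and 7.64 in unfrozen cells, a 5.36-fold rise with no array near the other group (limma adjusted p = 0.0102). BTN2, which gathers misfolded proteins into deposits, had 10.14, 9.43 and 10.76 in frozen cells, against 7.37, 7.36 and 8.23 in unfrozen cells. Here too frozen replicate 2 was the lowest frozen array and unfrozen replicate 3 the highest unfrozen one (2.46 ± 0.42). SSA1, an Hsp70 made also without stress, had 11.29, 11.06 and 10.83 in frozen cells, against 9.39, 9.54 and 9.35 in unfrozen cells (1.63 ± 0.23). HSP42, a small heat shock protein also counted among the Msn2 and Msn4 targets, had 9.47, 9.39 and 9.88 in frozen cells, against 8.33, 8.43 and 8.36 in unfrozen cells.

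The polyubiquitin gene UBI4, which supplies the tag for protein breakdown under stress, rose by 1.38 ± 0.27 (10.35, 10.05 and 10.64 in frozen cells, against 9.03, 8.60 and 9.28 in unfrozen cells), a call that held in 11 of 25 alternatives. Of 35 proteasome genes 0 were called, and their median was 0.19, or 0.12 without unfrozen replicate 1. The smallest p among them belonged to PRE1 at 0.55 ± 0.17 and RPN12 at 0.40 ± 0.16 (limma adjusted p = 0.212 and 0.368). Among 36 autophagy genes 0 were called, although frozen arrays lay above unfrozen ones for 11 and below for 0, beside 12.2% and 11.6% of all genes. The vacuolar aminopeptidase APE1 stood at 0.85 ± 0.17 and ATG34, a receptor that delivers a vacuolar enzyme, at 0.85 ± 0.17 (limma adjusted p = 0.0547 and 0.0556). The autophagy median was 0.26, or 0.13 without unfrozen replicate 2.

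Transporters for small organic acids showed some of the largest rises. JEN1, the permease for lactate and pyruvate, had 8.11, 10.12 and 10.40 in frozen 24 h replicates 1, 2 and 3, against 6.47, 6.42 and 5.85 in unfrozen replicates 1, 2 and 3. ADY2, an acetate transporter, had 6.56, 8.35 and 9.27 in frozen cells, against 4.96, 4.95 and 3.37 in unfrozen cells. In both genes frozen replicate 1 was well below the other frozen arrays, yet above all unfrozen arrays (3.29 ± 0.56 and 3.63 ± 0.68, limma adjusted p = 0.0242 and 0.0375). AGP2, a plasma membrane protein needed for carnitine uptake, had 7.03, 7.57 and 8.46 in frozen cells, against 4.26, 4.74 and 4.75 in unfrozen cells. The gap between the groups was over 2 log2 units (3.10 ± 0.33, limma adjusted p = 0.00825), and the call held in 23 of 25 alternatives, where that of ADY2 held in 12 and that of JEN1 in 15. These were the 3 of 12 monocarboxylate and carnitine transport genes called, where 0.797% of all genes rose. The list's median was 0.68, but it was split, with 7 differences positive and 5 negative, the lowest at -1.01. Frozen arrays lay above unfrozen ones for 7 of these genes and below for 2, beside 12.2% and 11.6% of all genes. CRC1, the mitochondrial carnitine carrier, stood at 1.83 ± 0.42 (limma adjusted p = 0.0786).

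Peroxisomal breakdown of fatty acids was represented by 2 called genes of 46, both higher, where 0.797% of all genes were. POT1, the thiolase that completes each round of the breakdown, had 4.60, 6.22 and 6.57 in frozen cells, against 1.83, 1.64 and 2.31 in unfrozen cells. No unfrozen array measured it above its own background, so the rise is a bound. It was at least 2.75 on the log2 scale, or at least 6.75-fold. The call of POT1 (limma adjusted p = 0.0121) used the unfrozen values as measured, below background, and does not test that bound. Its unfrozen mean of 1.93 was under the threshold of the filter on dim signals, so POT1 was tested only through its frozen arrays. SPS19, a reductase for unsaturated fatty acids, had 7.60, 7.59 and 7.47 in frozen cells, against 5.60, 5.89 and 6.55 in unfrozen cells (1.54 ± 0.28). The median of the 46 genes was 0.14.

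Of the regulators of this programme, CAT8, the activator of gluconeogenic genes, had 5.18, 5.44 and 6.05 in frozen cells, against 2.94, 3.55 and 3.04 in unfrozen cells. It was dim in all unfrozen arrays though above their background, and rose by 2.38 ± 0.40 (limma adjusted p = 0.0228). NRG2, a repressor of glucose-repressed genes, went the other way, with 7.92, 7.77 and 7.26 in frozen cells, against 9.17, 9.10 and 8.91 in unfrozen cells (-1.41 ± 0.25, limma adjusted p = 0.0279). These were the 2 of 27 carbon regulators called, where 0.797% of all genes rose and 0.204% fell. Of the 27 differences 20 were negative, with a median of -0.17, or -0.11 without frozen 24 h replicate 3. Among the enzymes that such regulators control, ADH2, the alcohol dehydrogenase that consumes ethanol, was the 1 of 19 gluconeogenic and glyoxylate genes called. ADH2 had 8.08, 8.93 and 8.02 in frozen cells, against 6.41, 6.47 and 5.30 in unfrozen cells. Frozen arrays lay above unfrozen ones for 12 of those 19 genes and below for 0, beside 12.2% and 11.6% of all genes. The median was 0.60, with 15 of 19 differences positive, and the carnitine acetyltransferase CAT2 stood at 0.79 ± 0.20 (limma adjusted p = 0.116).

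Mitochondrial and glycolytic enzymes held single calls. NDE2, an external NADH dehydrogenase of mitochondria, had 5.64, 6.70 and 6.55 in frozen cells, against 3.78, 4.31 and 3.71 in unfrozen cells, and was the 1 of 37 respiratory chain genes called. PYK2, the pyruvate kinase isoform repressed by glucose, had 8.63, 8.99 and 9.25 in frozen cells, against 7.54, 7.57 and 7.85 in unfrozen cells, and was the 1 of 26 glycolytic genes called. In both genes the lowest frozen array was replicate 1. Among 20 tricarboxylic acid cycle genes and 17 hexose transporters 0 were called, with PYC1 at 1.04 ± 0.24 and HXT9 at 1.19 ± 0.27 (limma adjusted p = 0.0816 and 0.0831).

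**Figure D2:**
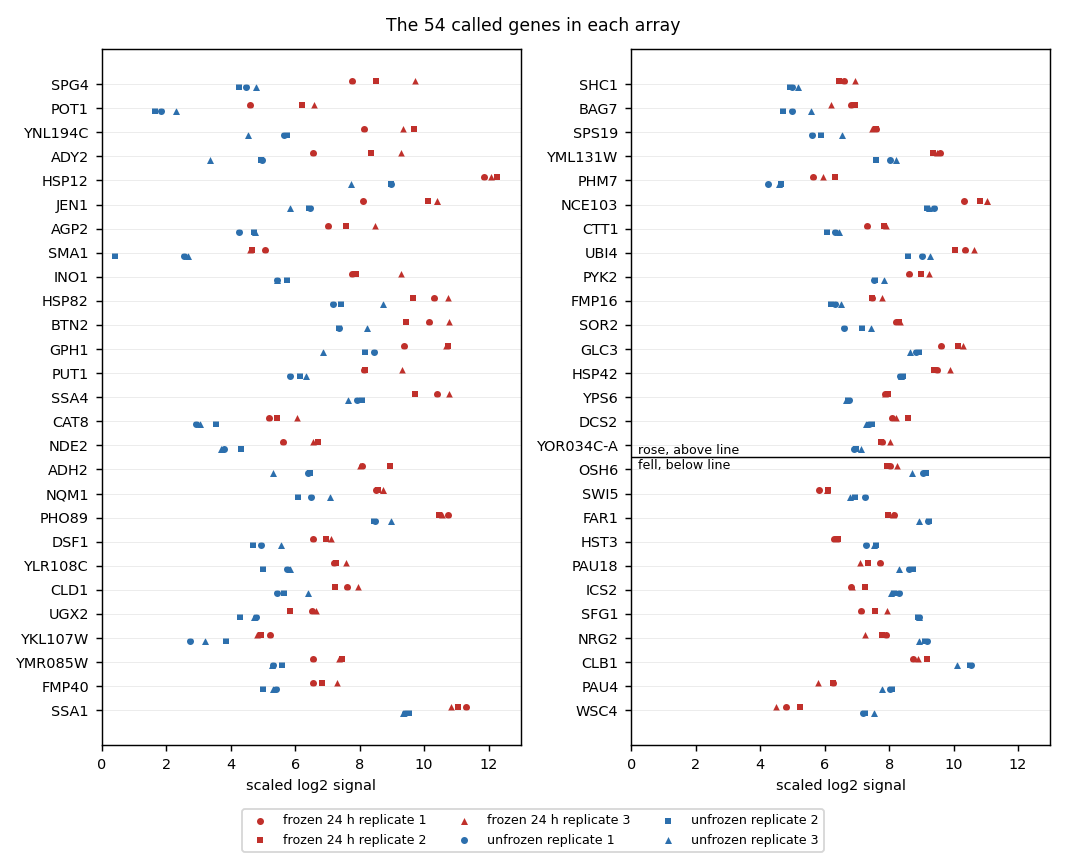
Each row is a called gene and each point an array, with the scaled log2 signal on the x axis, frozen 24 h arrays in red and unfrozen arrays in blue, and replicates 1, 2 and 3 as circles, squares and triangles. In all 54 genes the red and blue points do not overlap, and among genes that rose frozen replicate 1 is often the lowest red point.

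Across the 43 genes that rose, frozen replicate 1 was the lowest of the 3 frozen arrays in 24 and frozen replicate 3 the highest in 27. The ribosomal RNA signal was also lowest in frozen replicate 1 and highest in frozen replicate 3, an order over 3 arrays only. In frozen 48 h replicates 1, 2 and 3 it was 9.78, 7.64 and 9.80, so lowest in replicate 2. A link between the ribosomal RNA signal and the size of the rises was not tested. With that signal as a covariate no gene passed the test, and of the medians of the 46 lists 10 turned sign, 19 kept their sign but moved by over 1.5 times and 17 moved less. The signal separated the frozen from the unfrozen arrays, so a loss of calls with it cannot tell ribosomal RNA apart from freezing. The median was 0.70 with and 0.64 without the covariate for the Msn2 and Msn4 targets, and 0.35 with and 0.40 without it for the chaperones. It was -0.11 with and -0.38 without it for ergosterol genes, and 0.03 with and -0.41 without it for cold-shock and anaerobic mannoproteins.

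Several genes that rose belong to none of these groups. INO1, the enzyme that makes inositol phosphate for membrane lipids, had 7.78, 7.89 and 9.28 in frozen 24 h replicates 1, 2 and 3, against 5.43, 5.76 and 5.42 in unfrozen replicates 1, 2 and 3 (2.78 ± 0.38, limma adjusted p = 0.0121). It was the 1 of 24 phospholipid synthesis genes called, and the median of the 24 was -0.15. PUT1, the proline oxidase, had 8.13, 8.17 and 9.31 in frozen cells, against 5.84, 6.15 and 6.33 in unfrozen cells. In both, frozen replicate 3 stood above the other frozen arrays.

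PHO89, a sodium and phosphate cotransporter, rose by 1.96 ± 0.26 (10.75, 10.47 and 10.54 in frozen cells, against 8.46, 8.44 and 8.97 in unfrozen cells) and was the 1 of 32 nutrient permeases called. NCE103, the carbonic anhydrase, rose by 1.45 ± 0.27, CLD1, a phospholipase of the mitochondrial lipid cardiolipin, by 1.77 ± 0.27, and BAG7, which turns off Rho1 signalling, by 1.56 ± 0.31. DSF1, annotated as a mannitol dehydrogenase, and SOR2, a sorbitol dehydrogenase, rose by 1.82 ± 0.26 and 1.21 ± 0.21. Their probe sets are of a type shared with near-identical genes, so the copy that rose is uncertain. The others in no list were YLR108C, UGX2, YKL107W, YMR085W, FMP40, YML131W, PHM7, YPS6 and YOR034C-A, with rises from 0.84 for YOR034C-A to 1.82 for YLR108C. YKL107W was above background in 2 of 3 unfrozen arrays.

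Genes of meiosis and spore formation included 2 calls among 51, both higher, where 0.797% of all genes were. SMA1, a gene of spore membrane assembly, had 5.06, 4.67 and 4.61 in frozen cells, against 2.55, 0.40 and 2.68 in unfrozen cells. No unfrozen array was above its background, so the rise was at least 1.74 on the log2 scale. The call of SMA1 (limma adjusted p = 0.0491) used the unfrozen values as measured, below background, and does not test that bound. Its unfrozen mean of 1.88 was under the threshold of the filter on dim signals, so SMA1 was tested only through its frozen arrays. The call held in 11 of 25 alternatives. SHC1, an activator of chitin synthase in spores, had 6.59, 6.43 and 6.93 in frozen cells, against 4.98, 4.92 and 5.18 in unfrozen cells (1.62 ± 0.24). The list's median was 0.39, and it was 0.14 under quantile normalization and 0.25 without unfrozen replicate 1. With all genes cut into 5 equal bins by mean signal, the dimmest bin had a median of 0.12 and held 16 of the 43 calls upward and 4 of the 11 downward, while the brightest bin had a median of -0.21. By frozen replicate the dimmest bin stood at 0.21, 0.09 and 0.11. The brightest bin stood at -0.08, 0.03 and -0.51, so the low value there came from frozen replicate 3. The part of signal level in the list's median was not tested.

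Some genes of mitosis fell in frozen cells. Of 51 genes of G2 and M phase, 5 fell and 0 rose, where 0.204% of all genes fell, and the median was -0.39. Frozen arrays lay below unfrozen ones for 27 and above for 1, beside 11.6% and 12.2% of all genes. The difference was negative for 46 of the 51, with the median given above. By array it was -0.48, -0.31 and -0.30 in frozen 24 h replicates 1, 2 and 3, so all frozen arrays shared it, and it ranged from -0.45 to -0.36 with single arrays or replicate numbers left out. It was -0.43 under quantile normalization, and -0.09 in the unscaled deposited values, under which the median gene stood at 0.28. With the ribosomal RNA signal as a covariate it was -0.39 as well.

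CLB1, a mitotic cyclin, had 8.73, 9.19 and 8.90 in frozen cells, against 10.55, 10.51 and 10.10 in unfrozen cells. Its groups lay nearly 1 log2 unit apart at their closest (-1.45 ± 0.18, limma adjusted p = 0.0111). SWI5, the activator that turns on genes at the exit from mitosis, had 5.84, 6.11 and 6.07 in frozen cells, against 7.26, 6.94 and 6.77 in unfrozen cells. HST3, a histone deacetylase of the sirtuin family, had 6.27, 6.40 and 6.36 in frozen cells, against 7.28, 7.59 and 7.53 in unfrozen cells. Arrays of each group were close together for both (-0.98 ± 0.19 and -1.12 ± 0.17). SFG1, a regulator linked to filamentous growth, had 7.13, 7.56 and 7.94 in frozen cells, against 8.91, 8.90 and 8.92 in unfrozen cells, so the unfrozen arrays were nearly equal and the frozen ones spread out.

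WSC4 encodes a sensor-like protein of the cell surface and showed the largest fall that passed the test. It had 4.81, 5.23 and 4.50 in frozen cells, against 7.19, 7.25 and 7.53 in unfrozen cells, a 5.57-fold fall (-2.48 ± 0.38, limma adjusted p = 0.0145). It was also the 1 of 51 cell wall genes called, and that list's median was -0.15, turning to 0.01 under quantile normalization, 0.20 with the ribosomal RNA covariate and 0.02 without frozen 24 h replicate 3.

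Genes of the next cell cycle stage followed in part. ICS2 had 6.81, 7.24 and 6.85 in frozen cells, against 8.31, 8.15 and 8.05 in unfrozen cells (-1.20 ± 0.18), and was the 1 of 20 daughter-cell and M/G1 genes called. The median of those 20 was -0.30, frozen arrays were below unfrozen ones for 9 and above for 0, beside 11.6% and 12.2% of all genes. That median was -0.17 without frozen 24 h replicate 3 and -0.18 with the ribosomal RNA covariate, and the mating-type endonuclease gene HO stood at -0.86 ± 0.21 (limma adjusted p = 0.102). FAR1, an inhibitor that holds cells in G1 when pheromone is present, had 8.15, 7.97 and 8.13 in frozen cells, against 9.22, 9.23 and 8.92 in unfrozen cells. It was the 1 of 44 G1 and S phase genes called, and the median of that list was -0.07. The 10 histone genes had a median of -0.43 with 0 called, but this was -0.45, 0.05 and -0.83 by frozen replicate, -0.19 without frozen 24 h replicate 3, and turned to 0.06 with the ribosomal RNA covariate.

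Outside the cell cycle, PAU4 and PAU18, members of a large family of small wall mannoproteins, fell by 1.86 and 1.17 on the log2 scale. PAU4 had 6.26, 6.27 and 5.80 in frozen cells, against 8.01, 8.09 and 7.79 in unfrozen cells. PAU18 had 7.71, 7.35 and 7.10 in frozen cells, against 8.63, 8.73 and 8.31 in unfrozen cells. Both probe sets are of a type that can bind several family members, so which members fell is uncertain. OSH6, which moves phosphatidylserine between membranes, had 8.03, 7.92 and 8.26 in frozen cells, against 9.06, 9.13 and 8.70 in unfrozen cells. No array of 1 group entered the range of the other in any of these genes.

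**Figure D3:**
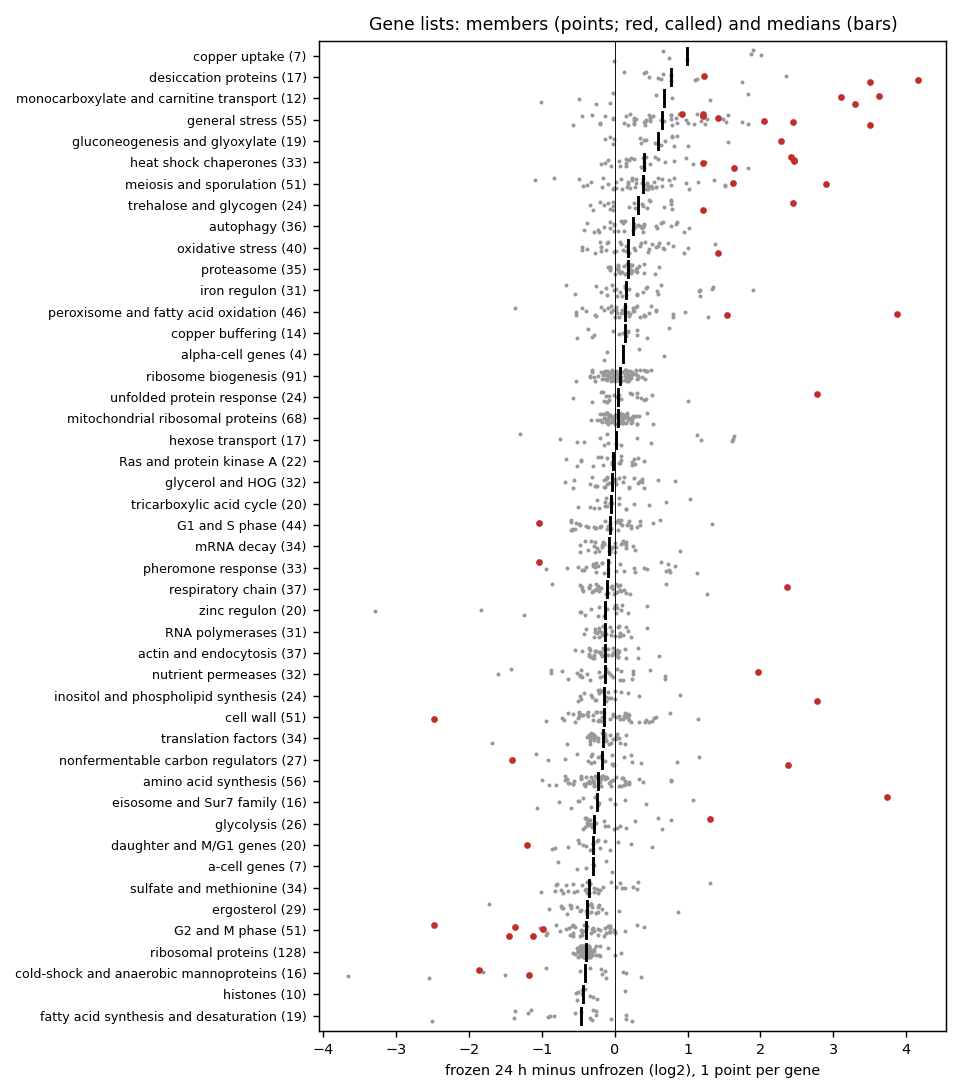
Each row is a list of genes with its number of tested members, each point a gene's frozen 24 h minus unfrozen difference on the log2 scale (red where called), and each bar the list's median. Medians run from 1.00 for copper uptake down to -0.47 for fatty acid synthesis, and called genes often lie far from the median of their own list.

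Of the 46 lists described, 22 held a called gene and 24 held none, and 17 called genes were in no list. Some lists shifted with no member passing the test. Fatty acid synthesis and desaturation had a median of -0.47 over 19 genes, with frozen arrays below unfrozen ones for 10 and above for 1, beside 11.6% and 12.2% of all genes. In frozen 24 h replicates 1, 2 and 3 it was -0.36, -0.22 and -0.89, and it was -0.25 without frozen 24 h replicate 3 and -0.25 with the ribosomal RNA covariate. Ergosterol genes had a median of -0.38 over 29 genes, with 12 below and 1 above, and by array -0.26, -0.15 and -0.80. In both lists frozen replicate 3 was the lowest, and without it the ergosterol median was -0.19.

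Sulfate and methionine genes had a median of -0.35 over 34 genes, close to equal in frozen 24 h replicates 1, 2 and 3 at -0.30, -0.32 and -0.27, although unfrozen replicate 3 stood at -0.26 too. It was -0.23 without replicate 1 of both groups and -0.17 with the ribosomal RNA covariate. Within that list SUL1, a sulfate permease, stood at 1.31 ± 0.29 (limma adjusted p = 0.0693). Amino acid synthesis had a median of -0.23 over 56 genes, or -0.06 without frozen 24 h replicate 3 and -0.03 with the ribosomal RNA covariate, with the transaminase BAT1 at -0.90 ± 0.27 (limma adjusted p = 0.205). The 128 ribosomal protein genes had a median of -0.40 that came from 1 array, with -0.15, 0.04 and -1.09 in frozen 24 h replicates 1, 2 and 3. It was -0.06 without frozen 24 h replicate 3, -0.02 under quantile normalization, and turned to 0.16 with the ribosomal RNA signal as a covariate.

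Copper uptake had the highest median of any list, 1.00 over 7 genes, yet no gene of it had non-overlapping arrays. By array the median was 1.33, 1.20 and 0.75 in the frozen arrays, against -0.52, -0.50 and 1.02 in the unfrozen arrays, so unfrozen replicate 3 stood with the frozen arrays. CTR1, the high-affinity copper transporter, had 11.10, 10.55 and 10.58 in frozen cells, against 7.99, 7.99 and 10.62 in unfrozen cells (1.87 ± 0.58, limma adjusted p = 0.222). FRE1, the reductase that prepares copper and iron for uptake, stood at 1.89 ± 0.59 (limma adjusted p = 0.228). The list's median was 1.46 without unfrozen replicate 3, and ranged from 0.59 to 1.72 with single arrays or replicate numbers left out.

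Among large differences that missed the test despite non-overlapping arrays, the lowest was that of DAN1, a cell wall mannoprotein made without oxygen. DAN1 had 8.28, 4.17 and 2.15 in frozen 24 h replicates 1, 2 and 3, against 8.51, 8.51 and 8.57 in unfrozen replicates 1, 2 and 3. Frozen replicate 1 was thus close to the unfrozen arrays while the others were far below (-3.66 ± 1.27, limma adjusted p = 0.292). OLE1, the desaturase that makes unsaturated fatty acids, had 10.52, 10.43 and 9.21 in frozen cells, against 12.84, 13.16 and 11.68 in unfrozen cells (-2.50 ± 0.55, limma adjusted p = 0.0673). TIR1, another mannoprotein, had 9.95, 9.88 and 7.64 in frozen cells, against 12.20, 12.37 and 10.53 in unfrozen cells. In OLE1 and TIR1 replicate 3 was the lowest array of each group, by more than 1 log2 unit.

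Replicate 3 was the lowest array of each group also for HEM13, an enzyme of haem synthesis, with 10.30, 11.07 and 9.38 in frozen cells, against 12.75, 12.86 and 11.54 in unfrozen cells. IZH4, a membrane protein linked to zinc and sterols, had 7.78, 7.62 and 6.12 in frozen cells, against 11.32, 11.23 and 8.86 in unfrozen cells (-3.29 ± 0.70, limma adjusted p = 0.0612). ANB1, the form of translation factor eIF5A made without oxygen, had 10.71, 11.24 and 9.62 in frozen cells, against 12.62, 12.75 and 11.26 in unfrozen cells. PLB2, a phospholipase B, stood at -2.42 ± 0.51 (limma adjusted p = 0.058), IZH1 at -1.83 ± 0.45, TIP1 at -1.81 ± 0.79 and the sterol-binding HES1 at -1.72 ± 0.49.

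Upward, RGI2, a gene of respiratory growth, had 6.54, 8.52 and 9.61 in frozen cells, against 5.07, 4.51 and 3.92 in unfrozen cells (3.72 ± 1.00, limma adjusted p = 0.152). SPG1 stood at 2.35 ± 0.51 and RTC2, a vacuolar transporter of basic amino acids, at 1.94 ± 0.41 (limma adjusted p = 0.0683 and 0.058). HSP26, a small heat shock protein, had 10.37, 9.27 and 9.77 in frozen cells, against 7.51, 7.14 and 9.26 in unfrozen cells, where unfrozen replicate 3 nearly reached frozen replicate 2. SUE1, which acts on unstable cytochrome c, stood at 1.98 ± 0.48 (limma adjusted p = 0.102). The remaining 4, YLR012C, YMR206W, YNL277W-A and YNR075C-A, were dim, with unfrozen means of 0.42, 0.90, 1.54 and 1.37. These means were under the threshold of the filter on dim signals, so the 4 were tested only through frozen arrays. YLR012C, YNL277W-A and YNR075C-A were in no unfrozen array above background, so their rises are bounds, at least 1.65, 0.38 and 0.11. YMR206W was above background in 1 unfrozen array.

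**Figure D4:**
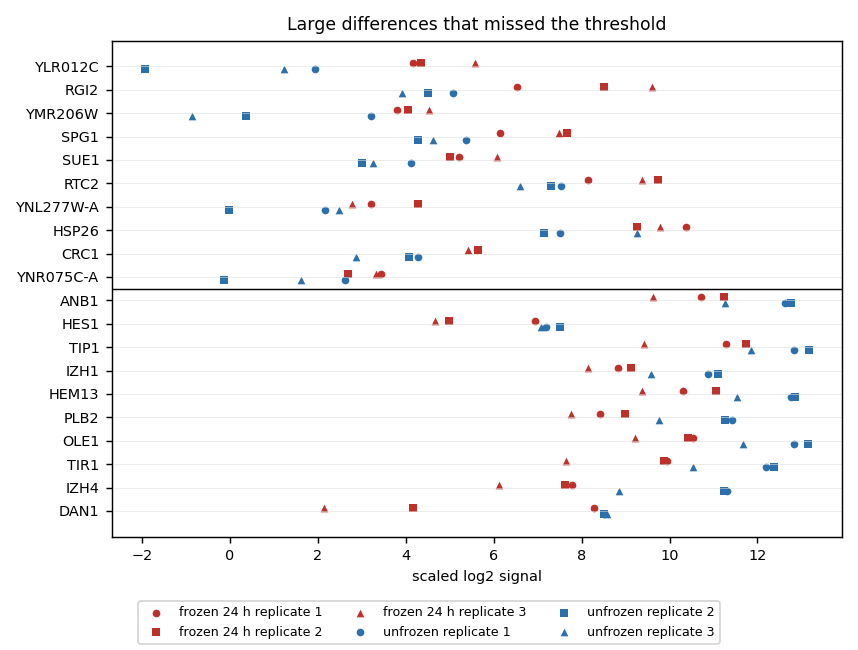
Rows are the 10 largest upward (above the line) and 10 largest downward differences (below it) among genes whose arrays did not overlap but which did not pass the test, with the scaled log2 signal of each array on the x axis. Frozen 24 h arrays are red and unfrozen arrays blue, and in most downward genes the triangle of replicate 3 is the lowest of both colours.

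Pairs of related genes of like function were compared through the change in the gap between them within each array. A shift of a whole array by 1 amount cannot move this gap, but quantile normalization can. Several partners were among the brightest genes, and the brightest bin stood at -0.08, 0.03 and -0.51 in frozen 24 h replicates 1, 2 and 3. The part of signal level in the gaps was not tested. Of 19 pairs, the gap was larger in all frozen arrays for 7, smaller in all for 3, and overlapped for 9. An exact two-sided permutation test gave 0.1 at best for a pair, the smallest possible p, and 0.19 adjusted over the 19 pairs, so no pair could pass. The values are given as a description.

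The gap between ADH2, which consumes ethanol, and ADH1, which makes it, changed most, by 2.65. ADH1 itself stood at -0.37 ± 0.42. The gap between SSA4 and SSA2 changed by 2.51, with the constitutive Hsp70 gene SSA2 at -0.09 ± 0.29, and that between HSP82 and HSC82 by 2.51, with HSC82 at -0.04 ± 0.30. In these pairs the stress-inducible gene rose and its partner was not called, whereas in SSA3 and SSA1 the inducible SSA3 was uncalled at 0.48 ± 0.25 and SSA1 rose. The gap of NDE2 to NDE1 changed by 2.16 and that of PYK2 to CDC19, the main pyruvate kinase of glycolysis, by 1.71, with NDE1 at 0.20 ± 0.34 and CDC19 at -0.41 ± 0.45.

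ALD4 and ALD6, acetaldehyde dehydrogenases of mitochondria and cytosol, were each uncalled at 0.81 ± 0.25 and -0.63 ± 0.30. Their gap was -0.86, -1.09 and -0.74 in the frozen arrays, against -2.36, -2.38 and -2.27 in the unfrozen arrays. Its SD was 0.182 in frozen and 0.0572 in unfrozen arrays, and its change was 1.44. CYC7, the cytochrome c isoform made under low oxygen and stress, gained on CYC1 by 1.19. That gap was -0.14, -0.16 and 1.30 in frozen replicates 1, 2 and 3, against -0.73, -0.54 and -1.30 in unfrozen replicates. Frozen replicate 3 thus stood far above the other frozen arrays. The gap of SSA3 to SSA1 went the other way, changing by -1.15, and that of CLB1 to CLB2 by -0.42. CLB2, the main mitotic cyclin, had 7.53, 7.97 and 8.10 in frozen cells, against 9.12, 9.12 and 8.45 in unfrozen cells (-1.03 ± 0.23, limma adjusted p = 0.0748).

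**Figure D5:**
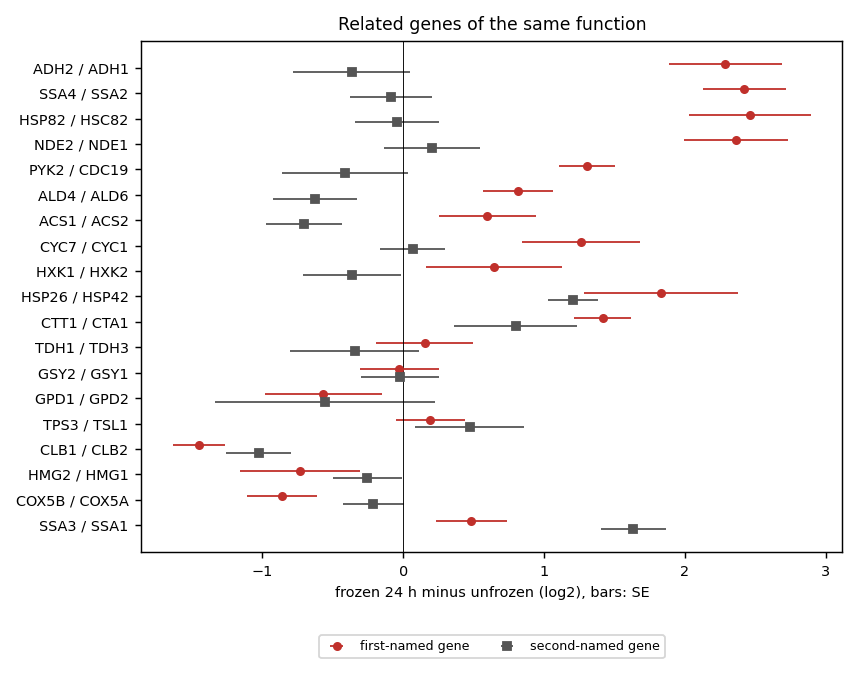
Each row is a pair of related genes, with the frozen 24 h minus unfrozen difference on the log2 scale on the x axis, the first-named gene in red, its partner in grey and bars for the SE of limma over 3 arrays per group. ADH2, SSA4, HSP82, NDE2 and PYK2 lie right of partners that sit near or below 0, while SSA3 lies left of SSA1 and both cyclins lie left of 0.

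No gene was called between cells frozen for 48 h and for 24 h. Both groups share the unfrozen arrays, so only their direct difference is a test, and in it limma called 0 of 5396 genes, 0%, with 22 (0.408%) at unadjusted p under 0.05. Among the 54 genes the 48 h minus 24 h difference ran from -0.50 for NRG2 to 0.75 for BAG7. HSP12 stood 3.63 above unfrozen cells at 48 h beside 3.51 at 24 h, JEN1 3.89 beside 3.29, HSP82 2.63 beside 2.46 and CLB1 -1.71 beside -1.45. Against unfrozen cells 157 genes (2.91%) were called at 48 h. That this count exceeds the 54 at 24 h does not show a difference between the times.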

How the data were processed

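RNA enriched for poly(A) was hybridised to Affymetrix Yeast Genome 2.0 arrays, which have 1 colour. The deposited values are linear intensities, 1 per probe set, from GCOS per the submitters' processing notes, with no version given. The labels also name GeneSpring 7.3.1, per-chip scaling to percentile 50 and division by unfrozen samples, but array medians differ and no ratios were found in the deposited intensities.

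Of 10928 probe sets, 5498 are annotated with 1 S. cerevisiae gene. The log2 intensities were shifted so that all arrays share 1 median over these. Genes were tested where the mean scaled log2 signal over all arrays exceeded 2.21, percentile 95 of 1746 S. pombe probe sets. A gene below background in all unfrozen arrays could thus pass through its frozen arrays. Among the named genes POT1, SMA1, YLR012C, YNL277W-A and YNR075C-A did so. The brightest probe set stood for its gene. Of the rest, 166 were controls, 1 had several genes, 3517 were not listed with a gene, and 12 symbols were updated through RefSeq's R64 table. Neither coordinates nor sequences were used.

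Limma 3.58.1 in R 4.3.3 fitted group means over all 9 arrays, with eBayes and a trend, two-sided tests and Benjamini-Hochberg adjustment over 5396 genes, and a gene was called at an adjusted p under 0.05. Differences are frozen minus unfrozen, in log2, ± the SE of the fit. Where no array of a group exceeded its own percentile 95 of S. pombe signals, a difference is given as at least the frozen mean minus the unfrozen mean, with each unfrozen value raised to that percentile. Single measures were compared by exact permutation tests. The procedure was tested on simulated data. The number of arrays limits precision.

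The comparison, the 46 gene lists and the 19 pairs were chosen with earlier results of these data known. A list is described by its counts and its median, with no test of its own. The genes named are all called genes, the called or otherwise the 2 smallest-p members of a list, the 10 largest non-overlapping differences each way that missed the threshold, the pairs and the strain markers. GSY1 and GSY2 are of the pairs, and SUR7 was named after its value was seen. The pairing of replicate numbers was checked by correlating the deviations of same-numbered arrays from their group means. These were -0.38, 0.25 and -0.12, and the labels state no pairing, so the main fit left the arrays unpaired. The correlations do not settle whether the arrays are paired or hold a batch. Replicate 3 was the lowest array of both groups for genes such as OLE1, TIR1 and HEM13. With the replicate block 113 genes were called, and with replicate 3 as a batch 139. No pair of arrays shared more than 0.00915% of identical values.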

Additional observations from a re-analysis of the deposited data

Results flagged for a closer look

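The 17 ribosomal RNA control probe sets, which the gene comparison does not use, had a median scaled log2 signal 2.94 higher in frozen 24 h than in unfrozen arrays, with no overlap. Poly(A) enrichment is meant to remove this RNA. The values by array stand in the results. Their part in the gene differences was examined only by the covariate, which cannot be told apart from freezing.

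Among 429 probe sets above background that were not listed with a gene, limma called 3 higher and 0 lower at 24 h. They are not named here.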

How the results depend on the processing

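The 54 calls (43 higher, 11 lower) stayed at 54 with a pseudocount, no filter, a stricter filter or averaging over all probe sets of a gene, and were 45 under quantile normalization and 52 without the trend. They were 34 (29 and 5) in the values as deposited, 64 (19 and 45) with arrays aligned on all probe sets, 118 (81 and 37) with only the 6 arrays compared, 139 (83 and 56) with replicate 3 as a batch and 0 (0 and 0, 139 at unadjusted p under 0.05) with the ribosomal RNA covariate. With the replicate block, whose numbers share nothing stated by the labels, they were 113 (71 and 42), and same-numbered arrays correlated best with each other for 1 of 3 numbers only. Leaving out arrays or replicate numbers in turn gave 0 to 121 calls, 0 to 87 higher and 0 to 34 lower. The 0 came without replicate 2 of both groups (279 at unadjusted p under 0.05). Chosen after seeing the data, leaving out replicate 3 of all groups gave 126 (79 and 47), and leaving out each 48 h array is within that range. All 54 kept their sign throughout, in refits of the same arrays that chose them. Why the counts moved was not tested.

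Uncalled differences that changed sign were those of BAR1 (0.018 in the values as deposited), RPB5 (0.0092 there and 0.030 with the ribosomal RNA covariate), HHT1 (0.072 with that covariate), and MRP1 (-0.019) and MYO4 (-0.00643) with arrays aligned on all probe sets. Some list medians near 0 also turned under the last alignment and in the values as deposited, which shift all genes alike. The promoter motif description was not run.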
